A study of Homo sapiens with 9 samples.

Results

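The clustered protocadherin genes are a family of cell-surface adhesion genes that lie in a tandem array of 3 clusters, named alpha, beta and gamma, on the plus strand of human chromosome 5. Members were chosen as the protein-coding genes of the deposited count table on chromosome 5 whose symbols belong to the PCDHA, PCDHAC, PCDHB, PCDHGA, PCDHGB or PCDHGC series. This rule gave 53 of 58735 genes, with 15 in the alpha, 16 in the beta and 22 in the gamma cluster. Genes entered by symbol, biotype and chromosome alone, but the family itself was selected on fold changes between these groups in these same libraries, which were known when it was put forward. The tests printed here therefore describe its members and support nothing further. On GRCh38 the alpha genes spanned positions 140786136 to 141012347, the beta genes 141051135 to 141249365, and the gamma genes 141330571 to 141512981.

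RNA was sequenced from bulk cultures of U87, an established human glioblastoma cell line, in 3 groups of 3 libraries. The C269S cells stably expressed mutant isocitrate dehydrogenase 1 (IDH1) that carries R132H, the change that makes the enzyme produce 2-hydroxyglutarate, together with C269S, which replaces a cysteine by serine. The IDH1mt cells stably expressed the R132H mutant with that cysteine intact, and the PCDH cells carried the vector alone. PCDH is the name of that vector in the labels and is unrelated to the protocadherin genes, whose symbols begin with the same letters. The series' title names autopalmitoylation of the R132H enzyme, the attachment of palmitate to itself, as the subject. All 3 groups keep the line's own IDH1 genes, and the sources used here state neither the promoter that drives the constructs nor the number of selected lines per construct. Nothing in the labels says that libraries of one group were grown as separate cultures. The p-values therefore rest on spread among libraries that may be only technical.

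The libraries held 19108925 to 24803711 counted reads each, and 16874 genes passed the filter on low counts. IDH1 was at 718 to 773 CPM in C269S libraries and at 660 to 693 CPM in IDH1mt libraries. It was at 102 to 118 CPM in PCDH libraries, in accord with the label of the vector group. IDH1 levels cannot tell which mutant group carries C269S, so the columns of those groups rest on their names. CPM are read counts scaled to a common library total after trimmed-mean (TMM) correction, and a count of 3 reads, the upper limit that a count of 0 allows, was worth 0.123 to 0.161 CPM per library, counting error only. Of 8 glial and glioma markers, TNC, CD44, VIM and NES were abundant, GFAP was at 2.84 to 4.34 CPM, and S100B and SOX2 did not pass the filter, with 33 and 5 reads over all 9 libraries. The summed level of these 8 markers was 10181 to 10479 CPM in C269S, 9370 to 9760 CPM in IDH1mt and 10362 to 10673 CPM in PCDH libraries. That sum was lowest in IDH1mt and was made up almost wholly of TNC, CD44 and VIM. Of the 6 markers tested, IDH1mt had TNC (log2 fold change -0.46) and VIM (-0.16) lower and CD44 (0.33) higher than PCDH. These calls are by edgeR's quasi-likelihood test, as defined for the family below, beside 6.9% of all tested genes called lower and 7.18% higher. NES, GFAP and OLIG2 were not called, with means of 72.2, 4.01 and 7.07 CPM in IDH1mt and 63.4, 3.49 and 8.02 CPM in PCDH libraries. The part of these markers in the protocadherin values was not tested.

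Clustered protocadherins are single-pass membrane proteins whose extracellular cadherin repeats bind the same isoform on a neighbouring cell, and in neurons each cell's own mixture of isoforms lets its branches tell self from non-self. Each variable first exon of the alpha and gamma clusters has its own promoter and is spliced to exons at the end of the cluster that encode a common cytoplasmic tail, whereas each beta gene is a single-exon gene with no such tail. The stochastically used promoters carry a conserved sequence element with the core CGCT that CTCF, a DNA-binding organizer of chromatin loops, can occupy together with cohesin, and methylation of these promoters is associated with silence. The genes named with a C (PCDHAC1, PCDHAC2, PCDHGC3, PCDHGC4 and PCDHGC5) are used less stochastically, and in neurons are found more evenly among cells. Gamma proteins are known in mice to bind and inhibit focal adhesion kinase, and silencing of the family by DNA methylation is described in several tumours.

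Promoter sequences are shown because beta genes moved together in these libraries, and the sequences let the promoters of the clusters be compared. RefSeq promoters (GRCh38.p14, 250 bases before to 50 after the start) were matched for 47 of the 53 genes. Missing entries were PCDHA3, PCDHA13, PCDHB6, PCDHB11, PCDHGA12 and PCDHGC5. Each window holds 36 bases of the plus strand, with the searched motif in capitals. The motifs were picked after the most frequent short words of the family's own promoters had been inspected, so their frequency in the family is a description. The 9-letter motif searched in the beta promoters was GGTGGCGCT, which contains the core CGCT and occurred on either strand in 13 of 14 beta promoters, in 0 alpha and 0 gamma promoters, and in 0.501% of all 35116 RefSeq promoters. The windows of the beta genes described below, in order along the cluster, were:
PCDHB2 (chr5:141094538-141094573): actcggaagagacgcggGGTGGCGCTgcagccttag
PCDHB5 (chr5:141135173-141135208): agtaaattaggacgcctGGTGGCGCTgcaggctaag
PCDHB7 (chr5:141172560-141172595): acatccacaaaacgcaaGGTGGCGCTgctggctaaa
PCDHB8 (chr5:141177771-141177806): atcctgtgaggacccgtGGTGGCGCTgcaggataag
PCDHB16 (chr5:141182304-141182339): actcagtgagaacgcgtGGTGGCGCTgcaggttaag
PCDHB10 (chr5:141192293-141192328): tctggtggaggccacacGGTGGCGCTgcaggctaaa
PCDHB13 (chr5:141213859-141213894): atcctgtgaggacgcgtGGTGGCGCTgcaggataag
PCDHB14 (chr5:141223257-141223292): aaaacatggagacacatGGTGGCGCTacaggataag
PCDHB15 (chr5:141245308-141245343): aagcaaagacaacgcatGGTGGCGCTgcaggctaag

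Across all 13 beta windows, 14 of the 36 positions held the same base in every gene, 9 of them being the searched motif itself. The core CGCT began at -79 to 3 relative to the RefSeq start, with a median of -61. PCDHB1 was the matched beta gene whose promoter lacks this motif. For the gamma cluster the motif CGCTGT, which also contains the core, was searched. It occurred in 17 of 20 gamma, 7 of 13 alpha and 1 of 14 beta promoters and in 11.2% of all promoters, and 8 of 36 positions were the same in all 17 gamma windows. The gamma windows of the genes described below were:
PCDHGA1 (chr5:141330397-141330432): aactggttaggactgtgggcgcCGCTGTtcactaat
PCDHGB1 (chr5:141350019-141350054): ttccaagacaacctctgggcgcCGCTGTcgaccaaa
PCDHGA4 (chr5:141354954-141354989): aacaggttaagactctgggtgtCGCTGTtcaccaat
PCDHGB2 (chr5:141359915-141359950): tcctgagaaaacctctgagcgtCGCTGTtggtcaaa
PCDHGA9 (chr5:141402708-141402743): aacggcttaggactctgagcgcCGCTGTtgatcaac
PCDHGA10 (chr5:141412925-141412960): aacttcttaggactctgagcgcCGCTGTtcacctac
PCDHGC3 (chr5:141475874-141475909): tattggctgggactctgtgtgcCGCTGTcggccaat

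For the alpha cluster the motif was GATGTCGCT, found in 9 of 13 alpha promoters, in 0 beta and 0 gamma promoters, and in 0.105% of all promoters. One of the 2 alpha genes with enough reads to test carried it:
PCDHA10 (chr5:140855835-140855870): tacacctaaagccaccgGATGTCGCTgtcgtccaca
The bare core CGCT was found in 46 of the 47 family promoters and in 70.0% of all promoters, so 4 letters alone do not set the family apart. Genes that were called and genes that were not shared these motifs: PCDHB2 and PCDHB14 carried the same 9 letters as PCDHB5 and PCDHB13. PCDHB1, which lacks them, had 0 reads, and any part of the motif in the fold changes was not tested.

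The 3 clusters were used very unequally in these cells. Summed over its genes, the gamma cluster reached 158 ± 2.68 CPM in C269S, 152 ± 4.09 CPM in IDH1mt and 165 ± 6.87 CPM in PCDH libraries (SD, n = 3 each). The beta cluster reached 64.8 ± 1.23 CPM in C269S, 44.6 ± 1.62 CPM in IDH1mt and 73.7 ± 3.97 CPM in PCDH libraries. The alpha cluster stayed at 1.66 ± 0.644 CPM in C269S, 1.98 ± 1.02 CPM in IDH1mt and 1.95 ± 0.232 CPM in PCDH libraries. Per length, with CPM divided by the kilobases of exon that no other annotated gene shares, PCDHGC3 had the highest level of the family at 29.2 CPM per kb over all libraries, followed by PCDHGC5 at 10.96 CPM per kb. The next were PCDHB16 at 2.95, PCDHB6 at 1.99 and PCDHGA9 at 1.95 CPM per kb. Most alpha genes lay near the bottom of the same scale. PCDHGC3 alone supplied 41.7% ± 1.28 of the family's summed CPM in C269S, 44.3% ± 1.27 in IDH1mt and 42.9% ± 1.01 in PCDH libraries.

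**Figure D1:**
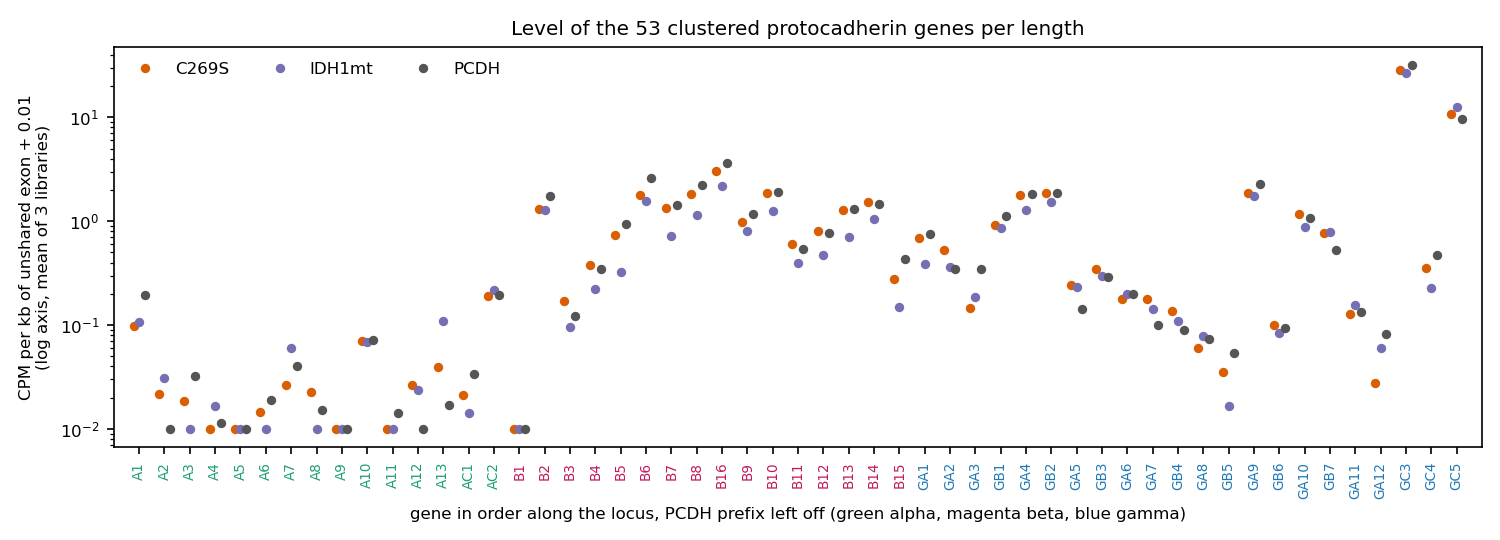
Mean level of each of the 53 genes in CPM per kb of exon not shared with another gene, plus 0.01, on a log axis, in the order of the genes along the locus, with 1 point per group. PCDHGC3 and PCDHGC5 at the right end stand highest, the beta genes and some gamma genes form a middle band, and most alpha genes lie near the bottom.

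Of the 53 genes, 35 passed the filter on low counts: 2 alpha, 15 beta and 18 gamma genes. Of the 18 that did not, 13 were alpha genes with 0 to 57 reads over all 9 libraries, and PCDHA5 and PCDHA9 had none. The others were PCDHA1 with 57 reads, PCDHA7 and PCDHA13 with 18 each, PCDHAC1 with 11, PCDHA3 with 7, PCDHA2 and PCDHA4 with 6 each, PCDHA12 with 4, PCDHA6 and PCDHA8 with 3 each and PCDHA11 with 1. PCDHB1 had 0 reads in all 9 libraries. The 4 gamma genes were PCDHGA8 with 49 reads, PCDHGB4 with 48, PCDHGA12 with 24 and PCDHGB5 with 13. Differences in these 18 genes were not detectable at this depth.

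Shared exons limit how far reads can be assigned to one gene of the alpha and gamma clusters. GENCODE release 29, whose coordinates equal those of the count table for all 53 genes, gives the gamma genes common exons at 141494807 to 141494865, 141505393 to 141505481 and 141510947 to 141512979. The first and the second of these belong to all 22 gamma genes and the third to 21. The alpha genes have the like arrangement at 140978949 to 140979007, 140982475 to 140982563 and 141009627 to 141012344. Exon bases shared with another gene on either strand made up 27.6% to 64.4% of a gamma gene, 21.3% to 63.1% of an alpha gene and 0% to 24.9% of a beta gene. Much of the beta share was with genes of the opposite strand, as for all 620 shared bases of PCDHB2. PCDHGB5 contains the common gamma exons and had 13 reads in all, while PCDHGC3, which contains them too, had 18452, so reads of the common exons were not credited to every gene that holds them. How ambiguous and multiply aligned reads were counted, and with which strand setting, is not stated in the sources used here.

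Whether mutant IDH1 went with a different protocadherin output was addressed by IDH1mt against PCDH. IDH1mt cells had lower levels of beta genes: 8 of the 15 tested were called lower and 0 higher, and all 15 fold changes were negative. At an unadjusted edgeR p under 0.05, 12 were lower and 0 higher. The share of all tested genes at that threshold was not worked out. The gamma cluster was mixed, with PCDHGA1 and PCDHGC3 lower and PCDHGC5 higher among 18 tested, and neither of the 2 tested alpha genes was called. A gene was called where edgeR's quasi-likelihood test, fitted to all 9 libraries, gave a Benjamini-Hochberg adjusted p under 0.05 over the 16874 genes. In this comparison 6.9% of all tested genes were called lower, 7.18% higher and 14.1% in either direction. The median log2 fold change was -0.69 over the 15 beta, -0.19 over the 18 gamma and 0.11 over the 2 alpha genes, against -0.01 over all tested genes. In 12 of the 15 beta genes all IDH1mt libraries lay below all PCDH libraries, a pattern shown by 14.9% of all tested genes. Without IDH1mt replicate 3 the family's count of lower genes was 6 in place of 10. The summed beta level in IDH1mt was 0.605 of that in PCDH, at 46.0, 44.8 and 42.8 CPM in the IDH1mt libraries and 69.1, 75.3 and 76.5 CPM in the PCDH libraries. In bulk RNA, fewer cells that express a gene and less RNA per cell cannot be told apart.

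**Figure D2:**
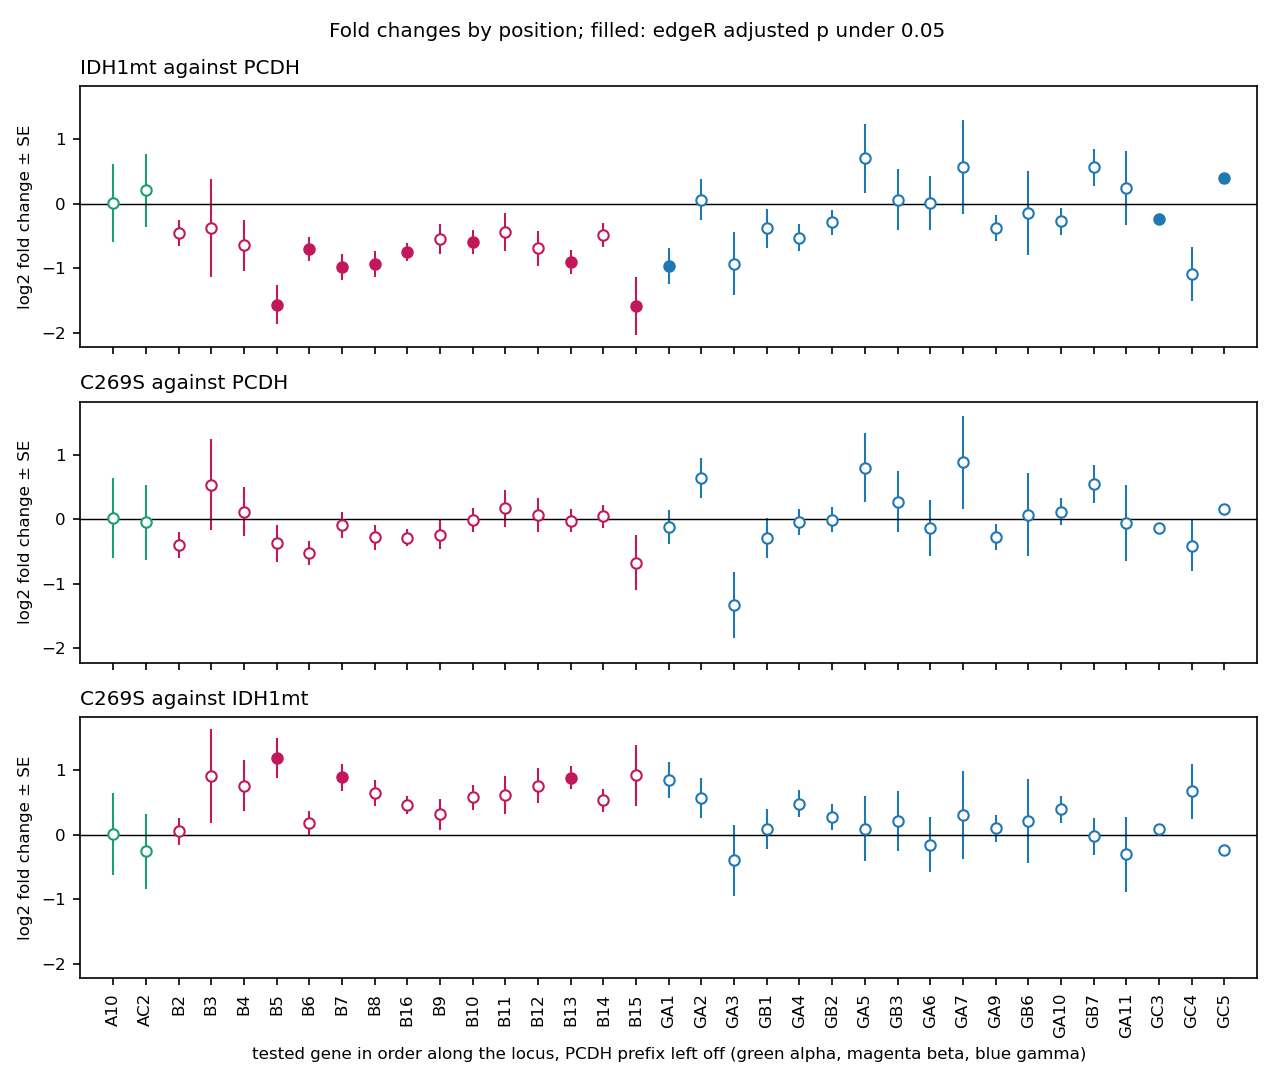
Log2 fold change with its standard error for each of the 35 tested genes, in order along the locus, for IDH1mt against PCDH (top), C269S against PCDH (middle) and C269S against IDH1mt (bottom). Filled points are genes with an edgeR adjusted p under 0.05. In the top panel all 15 beta genes lie below 0, and in the bottom panel all 15 lie above 0.

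PCDHB16 was the beta gene with the most reads. It measured 10.9, 11.5 and 11.3 CPM in C269S libraries, 9.26, 6.63 and 8.68 CPM in IDH1mt libraries and 11.8, 13.4 and 15.9 CPM in PCDH libraries. All 3 IDH1mt libraries lay below the other 6. The log2 fold change was -0.75 ± 0.14 (standard error) for IDH1mt against PCDH (edgeR adjusted p = 0.00027) and 0.46 ± 0.14 for C269S against IDH1mt, which was not called (edgeR adjusted p = 0.053). C269S against IDH1mt was called by DESeq2 (adjusted p = 0.0462), and by edgeR without PCDH replicate 1 (adjusted p = 0.0483) or PCDH replicate 3 (0.0222).

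PCDHB5 had one of the strongest differences of the family. It measured 2.19, 1.87 and 2.25 CPM in C269S libraries, 0.757, 1.24 and 0.7504 CPM in IDH1mt libraries and 2.26, 2.82 and 3.11 CPM in PCDH libraries. No IDH1mt library reached the lowest value of either other group. IDH1mt was 2.95-fold lower than PCDH (log2 fold change -1.56 ± 0.30, edgeR adjusted p = 0.000442). C269S was 2.28-fold higher than IDH1mt (1.19 ± 0.31, edgeR adjusted p = 0.0196), a call that was lost without IDH1mt replicate 1 (edgeR adjusted p = 0.115), IDH1mt replicate 3 (0.101), C269S replicate 1 (0.0743) or C269S replicate 3 (0.0717).

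PCDHB13 gave 6.64, 6.94 and 5.74 CPM in C269S libraries, 3.70, 2.92 and 3.86 CPM in IDH1mt libraries and 5.51, 7.12 and 6.92 CPM in PCDH libraries. C269S and PCDH libraries overlapped, and all IDH1mt libraries lay below both. Its log2 fold change was -0.91 ± 0.18 for IDH1mt against PCDH (edgeR adjusted p = 0.000655) and 0.88 ± 0.18 for C269S against IDH1mt (edgeR adjusted p = 0.00242). Both calls held with each of the 9 libraries left out in turn.

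PCDHB7 gave 4.59, 4.91 and 4.46 CPM in C269S libraries, 2.95, 2.22 and 2.36 CPM in IDH1mt libraries and 5.16, 4.38 and 5.32 CPM in PCDH libraries. The IDH1mt libraries were again the lowest 3. Its log2 fold change was -0.98 ± 0.20 for IDH1mt against PCDH (edgeR adjusted p = 0.000984) and 0.89 ± 0.21 for C269S against IDH1mt (edgeR adjusted p = 0.00718), the second of which was lost without IDH1mt replicate 2 (edgeR adjusted p = 0.0544).

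PCDHB8 measured 5.26, 4.41 and 4.04 CPM in C269S libraries, 3.16, 3.01 and 2.52 CPM in IDH1mt libraries and 4.97, 5.19 and 6.48 CPM in PCDH libraries. The IDH1mt libraries did not overlap with either group. Its log2 fold change was -0.93 ± 0.20 for IDH1mt against PCDH (edgeR adjusted p = 0.00139) and 0.65 ± 0.20 for C269S against IDH1mt, which was not called (edgeR adjusted p = 0.0625). It was called in that comparison without PCDH replicate 3 (edgeR adjusted p = 0.043).

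PCDHB6 measured 5.51, 6.13 and 5.65 CPM in C269S libraries, 5.68, 6.34 and 3.11 CPM in IDH1mt libraries and 8.21, 9.02 and 7.67 CPM in PCDH libraries. Here C269S overlapped with IDH1mt and not with PCDH. IDH1mt was lower than PCDH (log2 fold change -0.70 ± 0.19, edgeR adjusted p = 0.00919), a call that was lost without PCDH replicate 2 (edgeR adjusted p = 0.0522) or IDH1mt replicate 3 (0.0905). C269S against PCDH was -0.53 ± 0.19 and not called (edgeR adjusted p = 0.177).

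PCDHB10 measured 7.15, 5.37 and 5.65 CPM in C269S libraries, 4.21, 4.94 and 2.89 CPM in IDH1mt libraries and 5.65, 6.20 and 6.48 CPM in PCDH libraries. All IDH1mt libraries lay below the other 6. Its log2 fold change for IDH1mt against PCDH was -0.59 ± 0.19 (edgeR adjusted p = 0.0348). That call was lost without PCDH replicate 2 (edgeR adjusted p = 0.088), PCDH replicate 3 (0.06), IDH1mt replicate 1 (0.0753) or IDH1mt replicate 3 (0.205), and with limma on log2(FPKM + 1), where the log2 fold change was -0.37 (limma adjusted p = 0.0751).

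PCDHB15, the last gene of the cluster, was the lowest of the called beta genes by reads. It measured 0.970, 0.658 and 1.24 CPM in C269S libraries, 0.589, 0.535 and 0.375 CPM in IDH1mt libraries and 2.21, 1.56 and 0.843 CPM in PCDH libraries. The PCDH libraries spread widely, but they and the C269S libraries stayed above the IDH1mt libraries. Its log2 fold change for IDH1mt against PCDH was -1.59 ± 0.45 (edgeR adjusted p = 0.0148), and the call was lost without PCDH replicate 1 (edgeR adjusted p = 0.128) or IDH1mt replicate 3 (0.0668). It was also lost with limma on log2(FPKM + 1), where the log2 fold change was -0.29 (limma adjusted p = 0.059).

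Of the abundant beta genes, PCDHB2 and PCDHB14 were not called in any comparison. PCDHB2 measured 3.73, 4.51 and 5.47 CPM in C269S libraries, 3.70, 3.83 and 5.84 CPM in IDH1mt libraries and 5.11, 6.87 and 6.12 CPM in PCDH libraries, so that IDH1mt and PCDH overlapped (edgeR adjusted p = 0.143). PCDHB14 measured 7.55, 7.55 and 6.06 CPM in C269S libraries, 3.45, 5.85 and 5.36 CPM in IDH1mt libraries and 7.28, 6.45 and 6.79 CPM in PCDH libraries. The log2 fold changes for IDH1mt against PCDH were -0.45 ± 0.20 for PCDHB2 and -0.49 ± 0.18 for PCDHB14 (edgeR adjusted p = 0.0721). PCDHB2 was called without IDH1mt replicate 3 (edgeR adjusted p = 0.0427) and PCDHB14 without IDH1mt replicate 2 (0.0409).

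**Figure D3:**
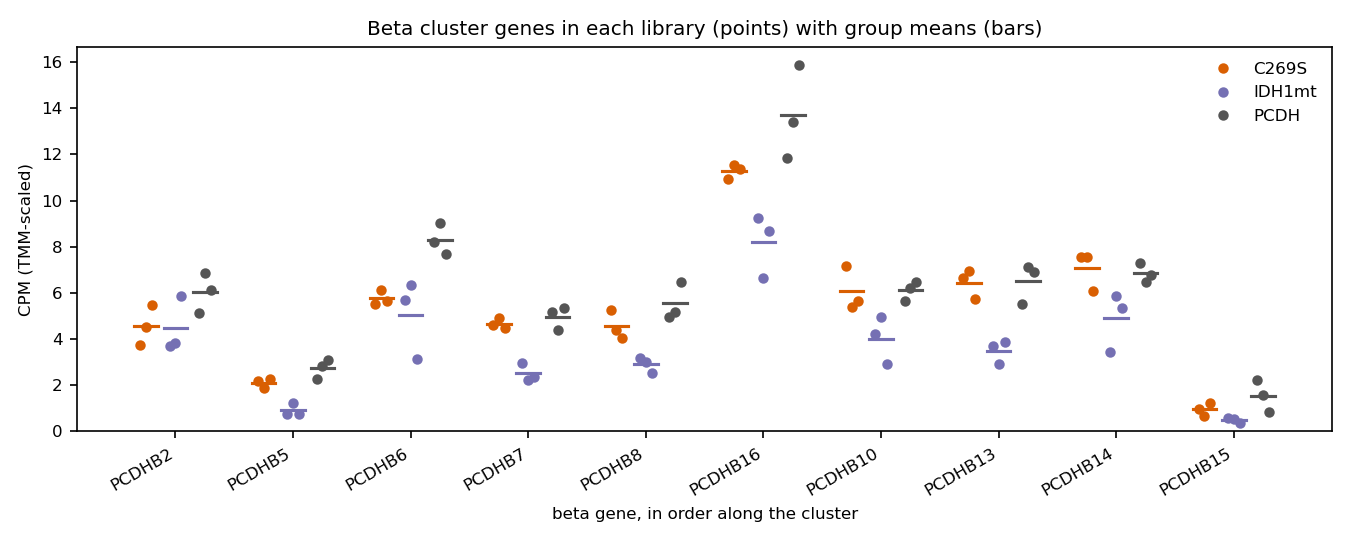
TMM-scaled CPM of the 10 beta genes described in the text, with 1 point per library, a bar at each group mean and the groups C269S, IDH1mt and PCDH side by side. The 3 IDH1mt points lie below all points of both other groups except for PCDHB2, where they overlap with both, and PCDHB6, where they overlap with C269S.

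By position within the beta cluster, the median log2 fold change for IDH1mt against PCDH was -0.70 over the first 7 tested genes, PCDHB2 to PCDHB8, and -0.64 over the last 8, PCDHB16 to PCDHB15. For C269S against PCDH it was -0.28 over the first 7 and -0.02 over the last 8, and for C269S against IDH1mt 0.76 and 0.60. Beta genes resemble one another in sequence, and in 5 tested genes (PCDHB2, PCDHB8, PCDHB9, PCDHB10 and PCDHB13) only 74.3% to 89.3% of the 100-base words of the first exon occur in no other protocadherin. The median was -0.59 over these 5 and -0.70 over the 10 tested genes with at least 90% of such words. Values of single beta genes remain uncertain to the extent that reads of near-copies were divided among them or dropped. The transcribed pseudogene PCDHB17P, which lies within the beta cluster and is no member, measured 1.58, 1.47 and 1.65 CPM in C269S libraries, 1.60, 1.44 and 1.66 CPM in IDH1mt libraries and 2.06, 2.78 and 3.19 CPM in PCDH libraries. It was called in no comparison (edgeR adjusted p = 0.0602 for IDH1mt against PCDH and 0.194 for C269S against PCDH), and its C269S libraries lay with IDH1mt.

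The genes at the far end of the gamma cluster carried most of the family's RNA. PCDHGC3 measured 97.6, 90.6 and 92.7 CPM in C269S libraries, 84.6, 92.3 and 86.5 CPM in IDH1mt libraries and 107, 101 and 102 CPM in PCDH libraries. IDH1mt and C269S overlapped and both lay below PCDH. The log2 fold change for IDH1mt against PCDH was -0.23 ± 0.06 (edgeR adjusted p = 0.0118), lost without PCDH replicate 1 (edgeR adjusted p = 0.0612), IDH1mt replicate 1 (0.0823) or IDH1mt replicate 3 (0.0605). For C269S against PCDH it was -0.14 ± 0.06 and not called (edgeR adjusted p = 0.36).

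PCDHGC5 was the member called higher in IDH1mt. It measured 28.99, 29.3 and 31.6 CPM in C269S libraries, 33.3, 33.8 and 39.3 CPM in IDH1mt libraries and 26.2, 26.9 and 27.8 CPM in PCDH libraries. The 3 groups did not overlap, with C269S in the middle. The log2 fold change was 0.39 ± 0.09 for IDH1mt against PCDH (edgeR adjusted p = 0.00214), 0.15 ± 0.09 for C269S against PCDH (edgeR adjusted p = 0.53) and -0.24 ± 0.09 for C269S against IDH1mt (edgeR adjusted p = 0.127). The call for IDH1mt against PCDH held with each library left out in turn.

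PCDHGC3 and PCDHGC5 lie next to PCDHGC4 and share the same common exons. Their ratio compares whole-gene counts of these neighbours within a library, and reads of the common exons may enter it unequally. PCDHGC5 stood at 0.297, 0.323 and 0.341 of PCDHGC3 in C269S libraries, at 0.394, 0.366 and 0.455 in IDH1mt libraries and at 0.245, 0.266 and 0.273 in PCDH libraries. The ratio did not overlap between any of the groups. It was formed from a member called higher and a member called lower for IDH1mt against PCDH. Its separation therefore restates the values of these genes and adds no separate result. How often other gene pairs separate in this way was not worked out. The mean ratio was 0.320 ± 0.0220 in C269S, 0.405 ± 0.0457 in IDH1mt and 0.261 ± 0.0150 in PCDH libraries (SD, n = 3 each). PCDHGC4 was far lower than both and was not called for IDH1mt against PCDH (log2 fold change -1.08, edgeR adjusted p = 0.0838). A ratio of genes in a library shows an unequal change, not which gene changed.

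**Figure D4:**
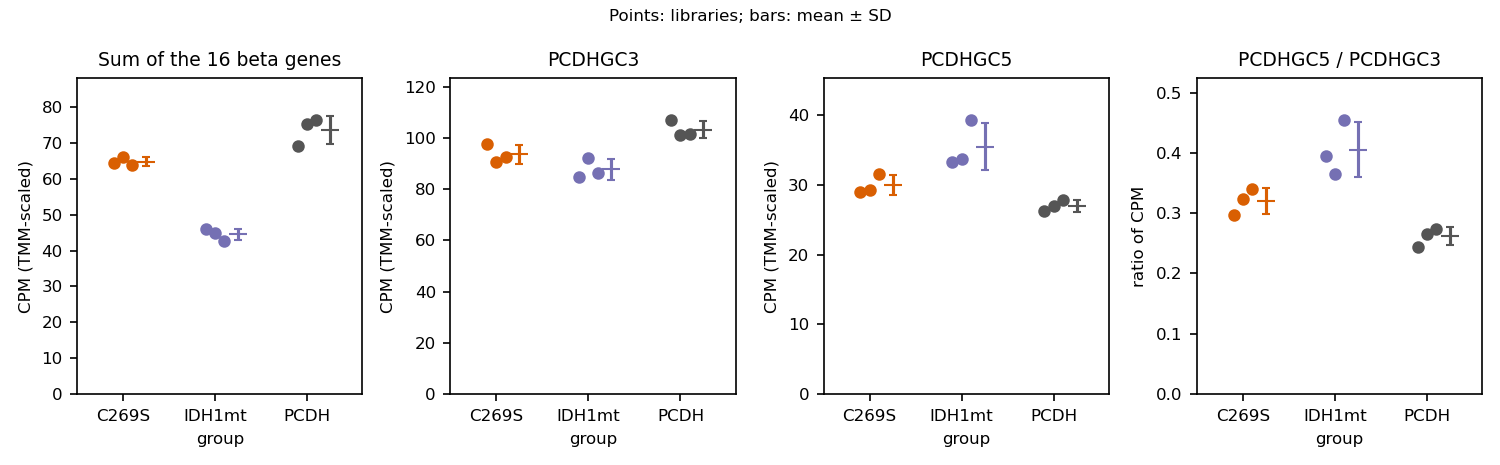
From left to right, the summed CPM of the 16 beta genes, the CPM of PCDHGC3, the CPM of PCDHGC5 and the ratio of PCDHGC5 to PCDHGC3, by library (points) with mean ± SD for C269S, IDH1mt and PCDH. The beta sum is lowest in IDH1mt, and the ratio is highest in IDH1mt, at 0.366 to 0.455, and lowest in PCDH, at 0.245 to 0.273.

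PCDHGA1, the first gene of the gamma cluster and the nearest to the beta genes, was the only called gamma gene of the A and B types, which are the stochastically used ones. It measured 2.91, 2.68 and 2.71 CPM in C269S libraries, 1.73, 1.56 and 1.29 CPM in IDH1mt libraries and 4.03, 2.87 and 2.13 CPM in PCDH libraries. All IDH1mt libraries lay below the other 6. The log2 fold change for IDH1mt against PCDH was -0.96 ± 0.27 (edgeR adjusted p = 0.0153), lost without PCDH replicate 1 (edgeR adjusted p = 0.143) or IDH1mt replicate 3 (0.0716), and with limma on log2(FPKM + 1), where it was -0.24 (limma adjusted p = 0.0694). For C269S against IDH1mt it was 0.85 ± 0.28 and not called (edgeR adjusted p = 0.0752), although it was called without PCDH replicate 3 (0.04).

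The other gamma genes with the most reads were not called. PCDHGA4 measured 4.95, 5.57 and 3.91 CPM in C269S libraries, 2.99, 3.54 and 3.81 CPM in IDH1mt libraries and 6.15, 4.68 and 4.08 CPM in PCDH libraries, with IDH1mt lowest throughout (log2 fold change against PCDH -0.53 ± 0.21, edgeR adjusted p = 0.0922). Without PCDH replicate 3 it was called (edgeR adjusted p = 0.0323). PCDHGB2 measured 4.24, 5.52 and 4.59 CPM in C269S libraries, 3.66, 4.57 and 3.59 CPM in IDH1mt libraries and 5.51, 4.72 and 4.26 CPM in PCDH libraries. Its IDH1mt and PCDH libraries overlapped. PCDHGA9 measured 4.95, 4.31 and 5.05 CPM in C269S libraries, 4.80, 3.75 and 4.88 CPM in IDH1mt libraries and 6.44, 3.96 and 7.01 CPM in PCDH libraries, where replicate 2 lay apart from the other two. PCDHGA10 measured 5.41, 6.03 and 3.997 CPM in C269S libraries, 4.50, 3.21 and 4.02 CPM in IDH1mt libraries and 5.46, 3.67 and 5.10 CPM in PCDH libraries. PCDHGB1 measured 1.23, 1.62 and 2.66 CPM in C269S libraries, 2.10, 1.73 and 1.34 CPM in IDH1mt libraries and 2.70, 2.15 and 1.95 CPM in PCDH libraries. The 3 groups overlapped for both of these genes.

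The A and B types together reached 33.7 ± 0.855 CPM in C269S, 27.8 ± 0.660 CPM in IDH1mt and 33.7 ± 3.89 CPM in PCDH libraries (SD, n = 3 each). All IDH1mt libraries were below all others, the ratio of IDH1mt to PCDH being 0.827. The 3 C types together reached 125 ± 3.53 CPM in C269S, 124 ± 4.72 CPM in IDH1mt and 132 ± 2.98 CPM in PCDH libraries. Of the 15 tested A and B types, 8 had negative and 7 positive fold changes for IDH1mt against PCDH. By position the median was -0.29 over the first 9 tested gamma genes, PCDHGA1 to PCDHGA6, and -0.15 over the last 9, PCDHGA7 to PCDHGC5. The beta genes supplied 28.8% ± 0.758 of the family's summed CPM in C269S, 22.5% ± 1.05 in IDH1mt and 30.6% ± 1.94 in PCDH libraries.

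Of the alpha cluster, PCDHA10 and PCDHAC2 were measured well enough to test, and neither was called in any comparison by edgeR. PCDHA10 stood at 0.715, 0.253 and 0.781 CPM in C269S libraries, 0.379, 1.11 and 0.214 CPM in IDH1mt libraries and 0.983, 0.590 and 0.177 CPM in PCDH libraries. PCDHAC2 stood at 0.561, 0.557 and 0.597 CPM in C269S libraries, 0.631, 1.11 and 0.268 CPM in IDH1mt libraries and 0.147, 0.548 and 1.06 CPM in PCDH libraries. The groups overlapped for both, and standard errors of 0.57 to 0.63 on the log2 scale leave all but large differences undetectable at this depth.

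C269S against PCDH compares cells that express the mutant with both R132H and C269S with vector cells. It therefore cannot single out the cysteine change. None of the 35 tested genes was called by edgeR, in a comparison in which 0.883% of all tested genes were called higher, 0.533% lower and 1.42% in either direction. DESeq2 and limma also called 0. At an unadjusted edgeR p under 0.05 there were 4 lower genes (PCDHB6, PCDHB16, PCDHGA3 and PCDHGC3) and 0 higher genes. The share of all tested genes at that threshold was not worked out. The median log2 fold change was -0.09 over the beta, -0.03 over the gamma and -0.02 over the alpha genes, against -0.01 over all tested genes. Of the 15 beta genes 10 had negative and 5 positive values. In 3 beta genes all C269S libraries lay below all PCDH libraries, and in 1 above, patterns shown by 7.57% and 7.62% of all tested genes. The summed beta level in C269S was 0.879 of that in PCDH, with 64.4, 66.2 and 63.8 CPM in C269S libraries against 69.1, 75.3 and 76.5 CPM in PCDH libraries. These sums did not overlap, so the absence of calls does not show that the levels were equal.

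The direct comparison of C269S against IDH1mt asks whether the cysteine change altered the output beside the R132H mutation. PCDHB5, PCDHB7 and PCDHB13 were higher in C269S, 0 genes were lower, and no alpha or gamma gene was called by edgeR. Of all tested genes 2.29% were called higher, 2.61% lower and 4.9% in either direction. At an unadjusted edgeR p under 0.05 the count was 11 higher and 1 lower, and DESeq2 called 4 higher and 0 lower. No share of all tested genes was worked out for the unadjusted threshold or for DESeq2, so these counts have no background beside them. All 15 beta fold changes were positive with a median of 0.65, while the median was 0.15 over the gamma and -0.12 over the alpha genes, against 0.00 over all tested genes. The 3 genes called higher became 6 when PCDH replicate 3 was left out and 5 with scaling by library size alone. In 10 beta genes every C269S library lay above every IDH1mt library, a pattern shown by 11.8% of all tested genes. The summed beta level in C269S was 1.45 times that in IDH1mt. The 3 called genes were all among those called lower in IDH1mt against PCDH. Both comparisons use the same IDH1mt libraries, so low values in those libraries enter both.

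Proteins chosen as known or possible regulators of these promoters, general chromatin factors among them, were followed as a list of 30 genes, of which 28 were tested. For IDH1mt against PCDH 3 were higher, 3 lower and 22 not called, with a median log2 fold change of -0.03, beside 7.18% of all tested genes called higher and 6.9% lower. TET3, which oxidizes methylcytosine, was higher (0.44 ± 0.10, edgeR adjusted p = 0.00214), as were PDS5B, a cohesin regulator (0.34), and REST, a repressor of neuronal genes (0.28). ATF7IP, a partner of the histone H3 lysine methyltransferase SETDB1, was lower (-0.51 ± 0.07, edgeR adjusted p = 7.86e-06), as were EZH2, the catalytic subunit of the Polycomb complex (-0.21), and TRIM28, a co-repressor that recruits SETDB1 (-0.18). For C269S against PCDH ATF7IP was lower (-0.33 ± 0.07, edgeR adjusted p = 0.0143), where 0.533% of all tested genes were lower. For C269S against IDH1mt TET3 was lower (-0.40) and EZH2 higher (0.25), where 2.61% of all tested genes were lower and 2.29% higher. DESeq2 gave the same counts for this list, and limma on log2(FPKM + 1) gave fewer. By limma 1 was higher and 3 lower for IDH1mt against PCDH, and 0 were called for C269S against PCDH. Its count for C269S against IDH1mt was 1 higher and 0 lower. CTCF measured 42.1, 44.1 and 40.2 CPM in C269S libraries, 42.5, 45.0 and 43.8 CPM in IDH1mt libraries and 46.1, 36.9 and 40.1 CPM in PCDH libraries. The groups overlapped for CTCF, which was called in no comparison. The activity of these proteins, 2-hydroxyglutarate and DNA methylation were not analysed here.

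Chosen partners of the protocadherin proteins formed a list of 22 genes, of which 21 were tested. They were mainly proteases that cleave these proteins, kinases that they bind and the WAVE actin-regulating complex. For IDH1mt against PCDH 4 were higher, 0 lower and 17 not called, beside 7.18% of all tested genes called higher and 6.9% lower. At an unadjusted edgeR p under 0.05 the list had 5 higher and 1 lower, and DESeq2 and limma also called 4 higher and 0 lower. Shares of all tested genes at the unadjusted threshold or by those tools were not worked out. The 4 were PTK2, which encodes focal adhesion kinase (0.47 ± 0.06, edgeR adjusted p = 7.04e-07), PRKCA, a protein kinase C (0.33 ± 0.05, edgeR adjusted p = 5.59e-05), MARCKS, a protein kinase C substrate (0.31 ± 0.06, edgeR adjusted p = 0.000255), and ADAM10, the protease that sheds the extracellular part (0.30 ± 0.06, edgeR adjusted p = 0.00075). PTK2 measured 194, 195 and 188 CPM in C269S libraries, 219, 227 and 242 CPM in IDH1mt libraries and 165, 156 and 177 CPM in PCDH libraries. It was highest in IDH1mt, and the groups did not overlap. For C269S against PCDH edgeR called 0 of 21, with 2 higher and 0 lower at an unadjusted p under 0.05, while DESeq2 called 1 higher. For C269S against IDH1mt MARCKS (-0.38), PTK2 (-0.26) and PRKCA (-0.25) were lower, beside 2.61% of all tested genes. In that comparison limma called 2 lower and 0 higher. The median log2 fold change of the list was 0.03 for IDH1mt against PCDH.

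Protocadherins and large cadherins that lie outside the clusters formed a list of 19 genes, of which 15 were tested. For IDH1mt against PCDH 4 were lower, PCDH18 (-0.73 ± 0.13), PCDH7 (-0.48 ± 0.08), PCDH10 (-0.47 ± 0.14) and CELSR2 (-0.42 ± 0.09), and 2 were higher, FAT2 (0.40 ± 0.13) and CELSR1 (0.26 ± 0.08), beside 6.9% of all tested genes called lower and 7.18% higher. PCDH18 measured 11.7, 11.8 and 10.4 CPM in C269S libraries, 7.28, 9.63 and 7.18 CPM in IDH1mt libraries and 14.1, 12.4 and 13.7 CPM in PCDH libraries. The IDH1mt libraries were lowest, C269S next. For C269S against PCDH PCDH10 was lower (-0.63 ± 0.14) and FAT2 higher (0.67 ± 0.13), beside 0.533% of all tested genes called lower and 0.883% higher. For C269S against IDH1mt CELSR2 (0.54), PCDH18 (0.49), PCDH7 (0.33) and FAT1 (0.31) were higher, beside 2.29% of all tested genes. DESeq2 gave the same counts for this list, and limma on log2(FPKM + 1) gave fewer. By limma 0 were higher and 3 lower for IDH1mt against PCDH, and 0 were called for C269S against PCDH. Its count for C269S against IDH1mt was 1 higher and 0 lower. PCDH7, PCDH10 and PCDH18, lower in IDH1mt too, lie on another chromosome than the clusters, while FAT2 and CELSR1 were higher. Whether these differences have anything in common with those of the clusters was not tested.

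Around the clusters, 82 other genes lay within 500 kb, and 32 of them were tested. For IDH1mt against PCDH GNPDA1 (-0.42 ± 0.08, edgeR adjusted p = 0.000528) and APBB3 (-0.41 ± 0.11, edgeR adjusted p = 0.0115) were lower and HBEGF (0.25 ± 0.09, edgeR adjusted p = 0.0447) was higher, with a median of -0.10 over the 32, beside 6.9% of all tested genes called lower and 7.18% higher. By limma 2 were lower and 0 higher in that comparison. In the other 2 comparisons edgeR, DESeq2 and limma called 0 of the 32. EdgeR called 1.42% of all tested genes for C269S against PCDH and 4.9% for C269S against IDH1mt. The neighbourhood had 7 lower and 1 higher for IDH1mt against PCDH at an unadjusted edgeR p under 0.05. At that threshold it had 5 lower and 0 higher for C269S against PCDH, and 4 higher and 0 lower for C269S against IDH1mt. The share of all tested genes at that threshold was not worked out. TAF7, a subunit of the general transcription factor TFIID that lies between the beta and gamma clusters, measured 111, 117 and 113 CPM in C269S libraries, 123, 115 and 122 CPM in IDH1mt libraries and 105, 110 and 117 CPM in PCDH libraries. Its groups overlapped and it was not called, while beta genes to its left were lower in IDH1mt. The neuronal markers, checked because neurons use these clusters most widely, had summed levels of 71.0 to 77.7 CPM in C269S, 71.8 to 81.5 CPM in IDH1mt and 64.5 to 68.4 CPM in PCDH libraries. Most of this sum was SNAP25, at a mean of 54.0 CPM in IDH1mt and 45.1 CPM in PCDH libraries. Of 6 tested, SNAP25 was higher in IDH1mt than in PCDH (0.26 ± 0.08, edgeR adjusted p = 0.0242), where limma called 0 of the 6. The other 5 were not called and went both ways. Means of SYP, SYN1 and RBFOX3 were higher in IDH1mt than in PCDH, and those of GAD1 and SLC17A7 lower.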

How the data were processed

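Bulk RNA-seq of U87 cells was analysed in 9 libraries, 3 per group as the labels give them. The deposited counts are whole numbers of reads assigned to each gene. HISAT2 2.0.5, featureCounts 1.5.0-p3 and GRCh38/hg38 are named in the submitters' processing notes. The deposited FPKM values equal the count divided by length and library total, times 1 factor per library, and served for an alternative. By their names, the columns CS, mt and Control were taken as C269S, IDH1mt and PCDH.

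The members and lists were chosen with earlier results of these data known. edgeR 4.0.16 (R 4.3.3) fitted all 9 libraries with filterByExpr, TMM scaling and a robust quasi-likelihood test, with Benjamini-Hochberg adjustment over 16874 genes and calls at adjusted p under 0.05. Standard errors were derived from the F statistic. Shares of all tested genes cover edgeR calls and non-overlap of libraries, not unadjusted p or other tools. The scripts were tested on simulated data. Alternatives were DESeq2 1.42.0, limma 3.58.1 on log2(FPKM + 1), other scalings, filters and thresholds, a replicate block and leaving out each library. Named genes are the 8 members per cluster with the highest mean count in the fit, every other member called, and in each list up to 4 genes with the lowest adjusted p or a call. Exon sharing and sequence uniqueness came from GENCODE 29, promoters from RefSeq (GRCh38.p14).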

Additional observations from a re-analysis of the deposited data

How the results depend on the processing

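The count of clustered protocadherin genes called lower in IDH1mt against PCDH was 10 and became 6 at an adjusted p under 0.01, 7 with limma on log2(FPKM + 1) and 11 with library size alone. Leaving out 1 library gave 6, without IDH1mt replicate 3, to 12, without IDH1mt replicate 2. The count higher in C269S against IDH1mt was 3 and became 5 with library size alone, and leaving out 1 library gave 2 to 6, the highest without PCDH replicate 3. The count higher in IDH1mt against PCDH was 1 and the other 3 counts were 0 under every setting run, leave-outs included. In the comparison in which it was called, no named gene changed its sign under any setting run. In comparisons without a call some of these genes did, such as PCDHB13 for C269S against PCDH, at -0.13 to 0.06 with 1 library left out. The median of the beta genes kept its sign in every setting run, at -0.29 for IDH1mt against PCDH and 0.29 for C269S against IDH1mt with limma on log2(FPKM + 1), a scale that understates changes of low genes. The median of the alpha genes changed sign without IDH1mt replicate 2, at -0.64 for IDH1mt against PCDH and 0.63 for C269S against IDH1mt. For C269S against PCDH it was -0.71 with no filter on low counts, against -0.02 over the 2 alpha genes that pass the filter.

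Same-numbered libraries did not deviate together, with correlations of -0.0871 to 0.0558 over 9 pairs. Over 18 differently numbered pairs the correlations were -0.0374 to 0.0725. This shows no shared deviation by number, and it cannot show that the numbers carry no meaning. With the replicate number as a block, 10 genes were called lower and 1 higher in IDH1mt against PCDH, 0 in C269S against PCDH, and 3 higher and 0 lower in C269S against IDH1mt.

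With 3 libraries per group, 18 of 53 members below the filter and shared exons, depth limits mainly the alpha genes.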
